A study of Homo sapiens with 2 samples.

Results

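The nucleolar ribosome biogenesis factors are the 42 genes whose proteins transcribe ribosomal RNA (rRNA), modify it and fold it into the ribosomal subunits. The members were chosen by symbol, and all 42 of them were found among the 18930 genes listed in the deposited table, had counts and passed the filter of 10 reads over both libraries. The study compared A375, a human melanoma cell line, made resistant (DR) to dacarbazine (DTIC), a drug that alkylates DNA, with the wild-type (WT) line. The bulk RNA sequencing consists of 1 DR-labelled library and 1 WT-labelled library, with no replicate of either. The labels give both libraries the same line, the same serum-containing DMEM culture and 105 days of DTIC, including the WT-labelled library, which the study treats as the wild-type control. By the study's methods, the DR line is the population that survived repeated DTIC doses of rising strength.

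Columns were matched to samples through sample descriptions that differ by 1 punctuation mark and do not name the wild type, so every direction below holds for the libraries as labelled. The estimated counts summed to 54878355 in the DR-labelled library and 35294670 in the WT-labelled library. Of the 8 melanocytic markers fixed for the check of the label, 6 had counts. Their summed level was 41.48 CPM (counts-per-million, reads scaled to the size of each library) in the DR-labelled library and 40.47 CPM in the WT-labelled library, most of it from MITF (34.53 and 34.81 CPM). SOX10 had 3 and 0 reads, and 0 reads allow up to 0.0862 CPM in the WT-labelled library. In both libraries all 10 plasma cell markers exceeded the median level of the genes tested, with a summed level of 5180 and 6268 CPM. The labelled cell type was thus not borne out by its defining markers, and the part of this in the values below was not tested. In bulk RNA a lower level in fewer cells and a lower level in every cell cannot be told apart.

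Ribosomes are built mainly in the nucleolus. RNA polymerase I transcribes the long precursor of the 18S, 5.8S and 28S rRNA. Box C/D and H/ACA particles, each a small nucleolar RNA (snoRNA) with a set of core proteins, then guide methylation and pseudouridylation of that precursor, while the small-subunit processome and the large-subunit assembly factors cut and fold it. The pathway is a known target of MYC, and its output is high in growing cells. NAT10, the acetyltransferase the study is about, also acts here, since it acetylates 18S rRNA within the small-subunit pathway.

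The biogenesis factors were abundant and mostly close in level between the libraries, with a small group of genes lower in the DR-labelled library. Their median level was 102 CPM in the DR-labelled library and 104 CPM in the WT-labelled library, against 19.9 and 19.7 CPM for the 16210 genes tested. Together they took 0.633% of the reads in the DR-labelled library (95% Clopper-Pearson interval 0.6314 to 0.6356%) and 0.700% in the WT-labelled library (0.6973 to 0.7028%). These intervals cover read counting only and not the spread between cultures. Log2 fold changes are those of the DR-labelled library over the WT-labelled library, on the scale of log2 (CPM + 0.5). The median over the 42 factors was -0.12, beside 0.01 for all genes tested. It was -0.08 with library totals in place of TMM scaling, -0.22 over the 23 factors without fractional counts and -0.05 over the 30 that share at most 10% of their 50-base stretches with other genes. The values ran from -1.41 for UTP3 to 0.47 for NHP2.

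A difference of at least 1.5-fold was counted, and with 1 library per condition it has no replicate check and no p-value. By this measure 7 of the 42 genes had a lower level in the DR-labelled library, UTP3, LTV1, GAR1, WDR12, NOP2, UBTF and TSR1, and 0 were higher. Of all genes tested, 11.3% were lower and 15.0% higher by as much. Among the 10388 genes with at least as many reads as the least-read member (697), a comparison added after the data were seen, the shares were 11.1% and 10.8%. The count of lower genes therefore lay near the background, at 7 of 42, while no factor passed in the upward direction. At 2-fold the counts were 2 lower (UTP3 and LTV1) and 0 higher, against 4.19% and 7.42% of all genes tested and 3.63% and 4.94% of those with at least 697 reads. The nearest genes short of the 1.5-fold line were NOP14 (log2 fold change -0.52) below and NHP2 (0.47) above.

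Read counting left little uncertainty in these values. Its 95% interval had a median half-width of 0.06 on the log2 scale, and the widest, that of TAF1B, was 0.21. It lay below 0 for 24 of the 42 factors and above 0 for 11, against 34.9% and 35.4% of all genes tested and 43.8% and 38.0% of those with at least 697 reads. The interval covers read counting only, and the spread between cultures cannot be known from these libraries.

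**Figure D1:**
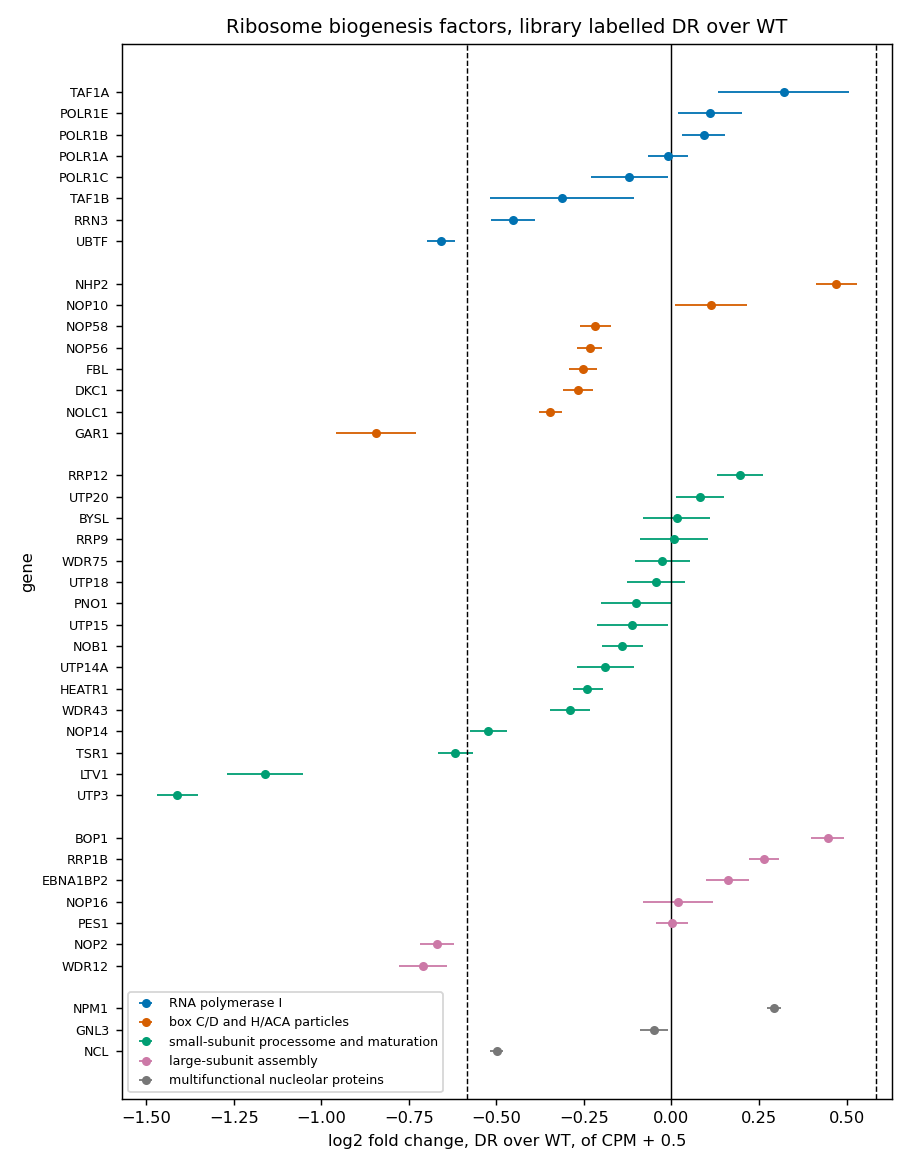
Log2 fold change of each of the 42 factors (x axis, DR-labelled library over WT-labelled library, on the scale of CPM + 0.5), by gene and group (y axis); bars are 95% read-counting intervals and dashed lines mark 1.5-fold. The 7 points left of the lower line are UTP3, LTV1, GAR1, WDR12, NOP2, UBTF and TSR1, and no point reaches the upper line.

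Among the 8 genes of RNA polymerase I and its factors, the subunits lay near equality, and UBTF and RRN3 were lower, UBTF by more than 1.5-fold. POLR1A, the largest subunit, had 6452 reads (115.9 CPM) in the DR-labelled library and 4059 reads (116.7 CPM) in the WT-labelled library, a log2 fold change of -0.01 (interval -0.07 to 0.05). POLR1B, the second-largest subunit, had 104.8 and 98.32 CPM (0.09), POLR1E 46.56 and 43.08 CPM (0.11), and POLR1C, which RNA polymerase III shares, 29.21 and 31.79 CPM (-0.12). These subunits thus lay within 0.12 of equality on the log2 scale. UBTF, the upstream binding factor that holds ribosomal DNA in an active state, had 9953 reads (178.8 CPM) in the DR-labelled library and 9834 reads (282.6 CPM) in the WT-labelled library. Its log2 fold change was -0.66 (interval -0.70 to -0.62), that is 1.58-fold lower. RRN3, which joins the polymerase to its promoter, lay on the same side with 79.18 and 108.5 CPM (-0.45, interval -0.52 to -0.39). For RRN3, 26.9% of the 50-base stretches of its transcript also occur in transcripts of other annotated genes, among them RRN3P1 and RRN3P2, so that its reads are uncertain.

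The SL1 factors TAF1A and TAF1B, which recruit the polymerase, were the least abundant of all 42. TAF1A had 652 and 323 reads (11.71 and 9.283 CPM), and TAF1B 390 and 307 reads (7.006 and 8.823 CPM). Their log2 fold changes were 0.32 (interval 0.13 to 0.51) and -0.31 (-0.52 to -0.11), so that these partners pointed in opposite directions and neither passed 1.5-fold. The median log2 fold change of the group was -0.07. It was -0.38 without genes with fractional counts, which leaves 4 genes, and -0.01 without RRN3.

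**Figure D2:**
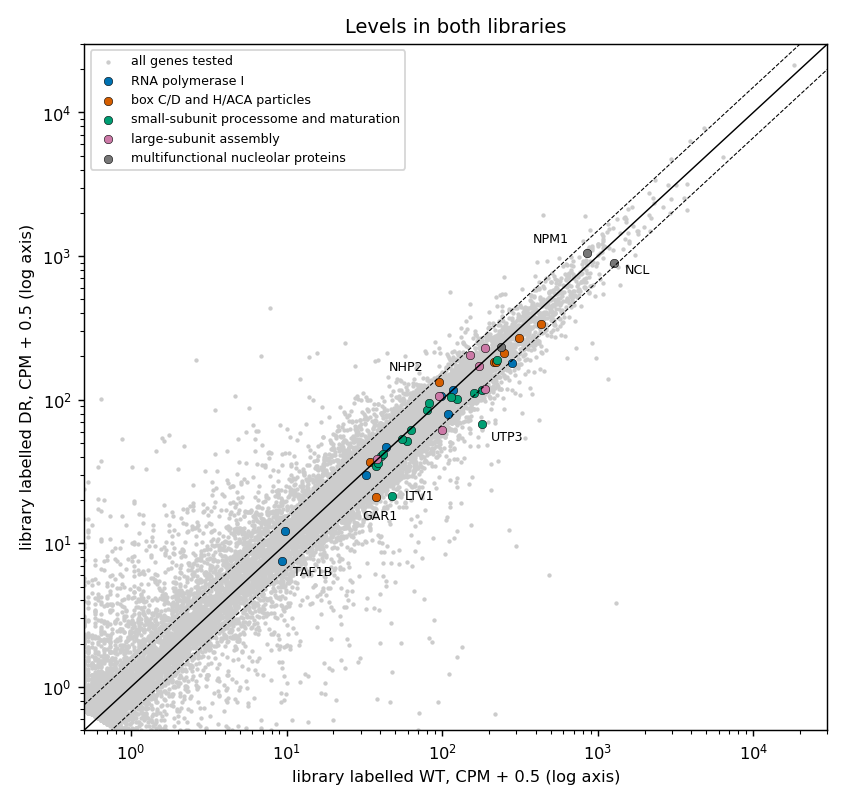
Level of each gene in the WT-labelled library (x axis) and the DR-labelled library (y axis), both as CPM + 0.5 on log axes; grey points are the 16210 genes tested, coloured points the 42 factors by group, the solid line equality and the dashed lines 1.5-fold. The factors follow the diagonal from TAF1B (8.823 and 7.006 CPM) to NPM1 (851.0 and 1042 CPM), with 7 factors below the lower dashed line, of which UTP3, LTV1 and GAR1 are named.

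Of the box C/D core proteins, the 3 among the 42 factors differed by similar amounts, and the core protein SNU13, which is not among them, lay on the other side of equality. Fibrillarin (FBL), the methyltransferase of the particle, had 11719 and 8725 reads (210.5 and 250.8 CPM), a log2 fold change of -0.25 (interval -0.29 to -0.21). NOP56 had 266.7 and 313.7 CPM (-0.23) and NOP58, its paired scaffold protein, 183.7 and 213.7 CPM (-0.22). The log2 fold changes of NOP56 and FBL differed by 0.02 (interval -0.04 to 0.07), and those of NOP58 and FBL by 0.03 (-0.02 to 0.09), which is within read counting. Per length, as reads per kilobase scaled to the same total in each library, the level of NOP56 was 0.58 times that of FBL in the DR-labelled library and 0.572 times in the WT-labelled library. For NOP58 these ratios were 0.402 and 0.392. SNU13, which binds the box C/D RNA directly, had 8660 and 4834 reads (155.6 and 138.9 CPM), a log2 fold change of 0.16 (interval 0.11 to 0.21).

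The H/ACA core proteins also differed in direction. Dyskerin (DKC1), the pseudouridine synthase, had 10186 and 7666 reads (183.0 and 220.3 CPM), a log2 fold change of -0.27 (interval -0.31 to -0.22). GAR1, which helps the particle release its product, had 1142 reads (20.51 CPM) in the DR-labelled library and 1295 reads (37.22 CPM) in the WT-labelled library, a log2 fold change of -0.84 (-0.96 to -0.73). NHP2, which binds the RNA, had 7389 reads (132.7 CPM) and 3326 reads (95.59 CPM), and its log2 fold change of 0.47 (0.41 to 0.53) was the highest of the 42. NOP10, the smallest core protein, had 2030 and 1172 reads (36.47 and 33.68 CPM), a log2 fold change of 0.11. GAR1 and NHP2 thus lay on opposite sides of DKC1. The difference from DKC1 on the log2 scale was -0.58 for GAR1 (interval -0.70 to -0.45) and 0.74 for NHP2 (0.67 to 0.81). The level of NHP2 per length was 8.91 times that of GAR1 in the DR-labelled library and 3.54 times in the WT-labelled library. The value of NHP2 is uncertain, since 52.2% of its 50-base stretches occur in other annotated genes, mainly RMND5B, which shares 40.6% of them. GAR1 shares 0.17%. NOLC1, the chaperone that binds both kinds of particle, had 337.2 and 428.6 CPM (-0.35), and the median of the 8 particle genes was -0.24.

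**Figure D3:**
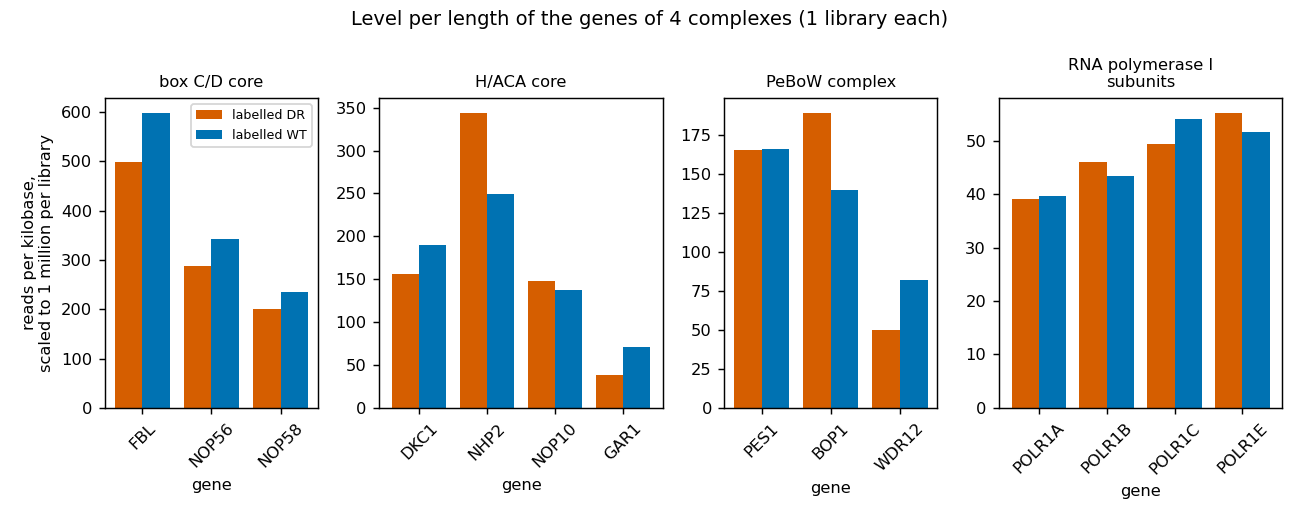
Level per length (y axis, reads per kilobase scaled to the same total in each library, each panel with its own scale from 0) of the genes of 4 complexes (x axis) in the DR-labelled library (orange) and the WT-labelled library (blue), 1 library each without error bars. The 3 box C/D genes keep their proportions, whereas GAR1 (38.64 and 70.70) and NHP2 (344.1 and 249.9) of the H/ACA core, and WDR12 (49.59 and 82.07) and BOP1 (189.0 and 139.8) of the PeBoW complex, shift in opposite directions.

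Several factors also carry snoRNA genes within their own span. In GENCODE 29 (GRCh38) 26 annotated snoRNA entries lie on the same strand inside 8 of the 42 genes. These hosts are DKC1, GNL3, NCL, NOP56, NOP58, POLR1C, TSR1 and WDR43. In GNL3 the entry RF01183 overlaps an entry named RF00569, so that the entries are not all distinct genes. By name 17 of the entries are box C/D and 4 H/ACA RNAs, and the names of the rest do not give the kind. The deposited table lists no snoRNA, so that only the host transcripts were measured. The median log2 fold change was -0.25 for the 8 hosts and -0.04 for the other 34 factors. At least 1.5-fold lower was 1 host, TSR1, beside 11.3% of all genes tested. The hosts DKC1, NOP56 and NOP58 are also particle genes, whose group median was -0.24. A link between hosting and level was not tested. Examples are shown in which host and guest belong to the same kind of particle, with the C box (TGATGA) and the last D box (CTGA) of box C/D RNAs, or the ACA of the H/ACA RNA, in capitals. SNORD57 lies in NOP56 at chr20:2656939-2657010 on the plus strand, SNORD11 in NOP58 at chr2:202293051-202293134 on the plus strand, and SNORA36A in DKC1 at chrX:154768528-154768659 on the plus strand.
SNORD57: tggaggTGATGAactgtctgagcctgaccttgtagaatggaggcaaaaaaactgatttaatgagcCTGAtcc
SNORD11: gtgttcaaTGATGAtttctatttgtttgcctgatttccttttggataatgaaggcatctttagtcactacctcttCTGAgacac
SNORA36A: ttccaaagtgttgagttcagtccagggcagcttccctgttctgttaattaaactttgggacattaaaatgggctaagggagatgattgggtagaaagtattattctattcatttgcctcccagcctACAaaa

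The 16 genes of the small-subunit processome and of small-subunit maturation held the largest differences among the factors, and most of the others lay near equality. UTP3, a processome component, had 3725 reads (66.91 CPM) in the DR-labelled library and 6223 reads (178.9 CPM) in the WT-labelled library. It was 2.66-fold lower in the DR-labelled library, with a log2 fold change of -1.41 (interval -1.47 to -1.35), at percentile 2.2 of all genes tested. By level per length it stood at rank 9 of the 42 in the WT-labelled library and at rank 19 in the DR-labelled library. No 50-base stretch of its transcript occurs in another annotated gene, and its deposited counts are whole numbers. The counts of NHP2, RRN3 and LTV1, which do share stretches, are whole numbers too.

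LTV1, which acts in export and late maturation of the small subunit, had 1151 reads (20.68 CPM) in the DR-labelled library and 1630 reads (46.85 CPM) in the WT-labelled library. Its log2 fold change was -1.16 (interval -1.27 to -1.05), or 2.24-fold lower, although 30.4% of its stretches are shared, mostly with AL049844.3. TSR1, a GTPase-like protein of the cytoplasmic precursor, had 6505 and 6249 reads (116.9 and 179.6 CPM; -0.62, interval -0.67 to -0.57) and shares 21.1% of its stretches, chiefly with the gene SRR. It was the only one of the 7 lower genes to fall short of 1.5-fold when library totals replaced TMM scaling. NOP14, a processome scaffold, had 111.4 and 160.3 CPM (-0.52) and shares 12.9% of its stretches.

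The other 12 genes of this group lay between -0.29 and 0.20 on the log2 scale. Of the subunits that join the precursor during transcription, WDR43 had 100.7 and 123.2 CPM (-0.29), HEATR1 189.1 and 223.4 CPM (-0.24), UTP15 1897 and 1283 reads (34.08 and 36.87 CPM; -0.11, interval -0.21 to -0.01) and WDR75 61.36 and 62.48 CPM (-0.03). RRP9, the protein specific to the U3 particle, had 40.06 and 39.86 CPM (0.01), UTP18 52.96 and 54.67 CPM (-0.05), UTP14A, the activator of a processome helicase, 51.36 and 58.63 CPM (-0.19), and UTP20 84.41 and 79.78 CPM (0.08). The late factors were alike. BYSL had 41.42 and 40.98 CPM (0.01), PNO1 35.53 and 38.17 CPM (-0.10), NOB1, the nuclease that makes the 3′ end of 18S rRNA, 103.2 and 113.8 CPM (-0.14), and RRP12, the highest of the group, 5223 and 2849 reads (93.82 and 81.88 CPM; 0.20, interval 0.13 to 0.26). LTV1 and TSR1 thus stood apart from the other late factors of the same subunit. NOB1, HEATR1, UTP14A and PNO1 share 30.1%, 23.8%, 11.9% and 10.3% of their stretches with other annotated genes, so that their values are uncertain too. The median of the 16 genes was -0.13, and -0.03 over the 9 that share at most 10% of their stretches.

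Among the 7 large-subunit genes 2 were at least 1.5-fold lower and 0 higher, beside 11.3% and 15.0% of all genes tested. NOP2, a methyltransferase of 28S rRNA, had 6545 reads (117.6 CPM) in the DR-labelled library and 6518 reads (187.3 CPM) in the WT-labelled library, a log2 fold change of -0.67 (interval -0.72 to -0.62). Its value is uncertain, since 83.3% of its stretches also belong to the overlapping annotated gene AC006064.6. Whether the deposited counts were made with that gene in the annotation is not known. PES1, BOP1 and WDR12 form the PeBoW complex, which is needed for the 28S rRNA. WDR12 had 3378 and 3465 reads (60.68 and 99.59 CPM; -0.71, interval -0.78 to -0.64), BOP1 11413 and 5231 reads (205.0 and 150.3 CPM; 0.45, 0.40 to 0.49), and PES1 9532 and 5951 reads (171.2 and 171.0 CPM; 0.00, -0.05 to 0.05). The complex thus had a member below, a member above and a member at equality. On the log2 scale the difference from PES1 was -0.71 for WDR12 (interval -0.80 to -0.63) and 0.45 for BOP1 (0.38 to 0.51). RRP1B had 227.7 and 189.3 CPM (0.27), EBNA1BP2 105.7 and 94.47 CPM (0.16) and NOP16 37.92 and 37.42 CPM (0.02). NOP16 shares 28.2% of its stretches with other annotated genes. The group median was 0.02. It was 0.36 over the 2 genes without fractional counts and 0.16 over the 5 that share at most 10% of their stretches.

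The multifunctional proteins nucleophosmin (NPM1) and nucleolin (NCL) had the highest levels per length of the 42 in both libraries, followed by FBL. NPM1, a histone chaperone and scaffold of the granular part of the nucleolus, had 58013 and 29609 reads (1042 and 851.0 CPM), a log2 fold change of 0.29 (interval 0.27 to 0.31). NCL, which binds the rRNA precursor, had 50031 and 44186 reads (898.7 and 1270 CPM), a log2 fold change of -0.50 (-0.52 to -0.48). The level of NCL per length was 0.447 times that of NPM1 in the DR-labelled library and 0.774 times in the WT-labelled library. Their log2 fold changes differed by -0.79 (-0.82 to -0.76). NPM1 has many processed copies, and 44.4% of its stretches occur in 30 other annotated genes, against 0.402% for NCL. GNL3 (nucleostemin) had 230.5 and 238.5 CPM (-0.05). At the other end of the order stood TAF1B (6.815 and 8.657 per length), TAF1A (11.47 and 9.172) and UTP15 (14.79 and 16.14), which had the lowest levels per length in both libraries.

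The upstream sequence of the factors was searched for CACGTG, the E-box that MYC and its partners bind, and for CCGGAA on both strands, the core of ETS sites. RefSeq windows (GRCh38.p14) matched 36 of the 42 factors and 12803 of the 16210 genes tested. In the 250 bases before an annotated start, CACGTG was found in 5 of the 36 factors (13.9%), EBNA1BP2, NOP10, UTP14A, UTP18 and UTP20, against 10.6% of the genes tested and 6.34% of all 35116 windows. CCGGAA was found in 17 of the 36 (47.2%), against 26.7% and 14.5%. Of the 7 lower genes, all of which had a window, GAR1, LTV1, NOP2, TSR1 and UTP3 held CCGGAA, UBTF and WDR12 did not, and none held CACGTG. A match to these letters is a description and not a site. The windows of UTP3 and LTV1, the genes past 2-fold, and of NOP10, with both motifs and a log2 fold change of 0.11, are given with the motifs in capitals. They lie at chr4:70688282-70688531 on the plus strand, chr6:143843088-143843337 on the plus strand and chr15:34343137-34343386 on the minus strand.
UTP3: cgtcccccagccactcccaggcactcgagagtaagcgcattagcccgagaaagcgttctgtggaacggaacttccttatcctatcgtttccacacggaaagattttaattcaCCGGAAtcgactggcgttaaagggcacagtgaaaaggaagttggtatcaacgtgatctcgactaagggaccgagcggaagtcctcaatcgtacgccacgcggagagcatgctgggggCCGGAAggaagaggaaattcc
LTV1: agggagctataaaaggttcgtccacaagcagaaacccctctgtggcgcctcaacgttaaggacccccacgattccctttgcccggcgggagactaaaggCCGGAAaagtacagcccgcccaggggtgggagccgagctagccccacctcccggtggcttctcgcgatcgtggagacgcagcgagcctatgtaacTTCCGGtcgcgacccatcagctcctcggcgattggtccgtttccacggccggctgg
NOP10: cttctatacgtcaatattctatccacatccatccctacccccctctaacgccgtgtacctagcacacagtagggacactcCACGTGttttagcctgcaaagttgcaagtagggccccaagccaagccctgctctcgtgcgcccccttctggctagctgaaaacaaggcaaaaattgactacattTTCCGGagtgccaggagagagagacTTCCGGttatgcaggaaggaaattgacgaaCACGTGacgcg

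MYC itself had 54339 reads (976.1 CPM) in the DR-labelled library and 19532 reads (561.4 CPM) in the WT-labelled library, a log2 fold change of 0.80 (interval 0.77 to 0.82). MYC was higher in the DR-labelled library, in which 0 of the 42 factors were 1.5-fold higher, and a link between these values was not tested. Of the 12 genes of the MYC network, 3 including MYC were at least 1.5-fold higher and 1 was lower, beside 15.0% and 11.3% of all genes tested.

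Another 124 genes, listed by role in ribosome biogenesis, were measured. The list includes MPP6 (-0.25), by its Gene ID a membrane scaffold gene and not the exosome cofactor of that name. The median log2 fold change of the 124 genes was -0.14, with 11 genes at least 1.5-fold lower, 1 higher and 112 (90.3%) between. Of all genes tested 11.3% were lower, 15.0% higher and 73.8% between. Of those with at least 697 reads the shares were 11.1%, 10.8% and 78.1%. Of the 42 factors 83.3% lay between. Of the 39 other small-subunit genes, PWP2 was 1.5-fold higher and none was lower. Of the 16 small-subunit genes among the factors, 3 were lower (UTP3, LTV1 and TSR1). LTV1 and TSR1 share 30.4% and 21.1% of their stretches, and TSR1 fell short of 1.5-fold with library totals. PWP2, a processome component, had 4138 and 1128 reads (74.33 and 32.42 CPM; log2 fold change 1.19, interval 1.09 to 1.28), but 89.7% of its stretches also occur in the annotated gene FP565260.1. FCF1, at -0.54, was the lowest of that list. NAT10 had 114.3 and 133.9 CPM (-0.23, interval -0.28 to -0.17), near the values of FBL and NOP56 and within 1.5-fold. The study reports NAT10 as upregulated in its resistant cells, with mRNA and protein assays in A375 and MeWo cells beside the sequencing. The libraries as labelled gave the opposite direction, and the reason was not tested.

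Of the 50 other large-subunit genes 8 were at least 1.5-fold lower and 0 higher, beside the 11.3% and 15.0% of all genes tested. DDX24, a helicase, had 9065 and 14695 reads (162.8 and 422.3 CPM; -1.37, interval -1.41 to -1.33). BRIX1, an assembly factor of the Brix family, had 1866 and 2548 reads (33.52 and 73.23 CPM; -1.12, -1.20 to -1.03), and DDX55, another helicase, 34.87 and 71.45 CPM (-1.02, -1.11 to -0.94). These genes share 10.7%, 23.8% and 19.7% of their stretches with other annotated genes. The highest of that list was NOP53 (listed as GLTSCR2) at 0.49. Of the 13 other polymerase I genes none passed 1.5-fold, from POLR2L (-0.56) to POLR1H (listed as ZNRD1; 0.39).

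The 80 cytoplasmic ribosomal proteins, the cargo of this pathway, had a median log2 fold change of 0.19, with 2 genes 1.5-fold higher (RPL8 and RPS14) and 1 lower (RPS27), beside 15.0% and 11.3% of all genes tested. Read-counting intervals lay above 0 for 56 of these 80 genes and below 0 for 18, whereas for the 42 factors they lay above 0 for 11 and below 0 for 24. Of all genes tested they lay above 0 for 35.4% and below 0 for 34.9%, and of those with at least 697 reads for 38.0% and 43.8%. Such counts rise with the number of reads. Shared stretches were not counted for the ribosomal proteins, and some of them, such as RPL10 and RPL21, have fractional counts. The median level in the DR-labelled library was 718 CPM for the ribosomal proteins, 102 CPM for the factors and 19.9 CPM for all genes tested. The medians of both lists lay within 0.2 of that of all genes tested, and their difference was not tested, since genes of 1 pair of libraries are not replicates.

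**Figure D4:**
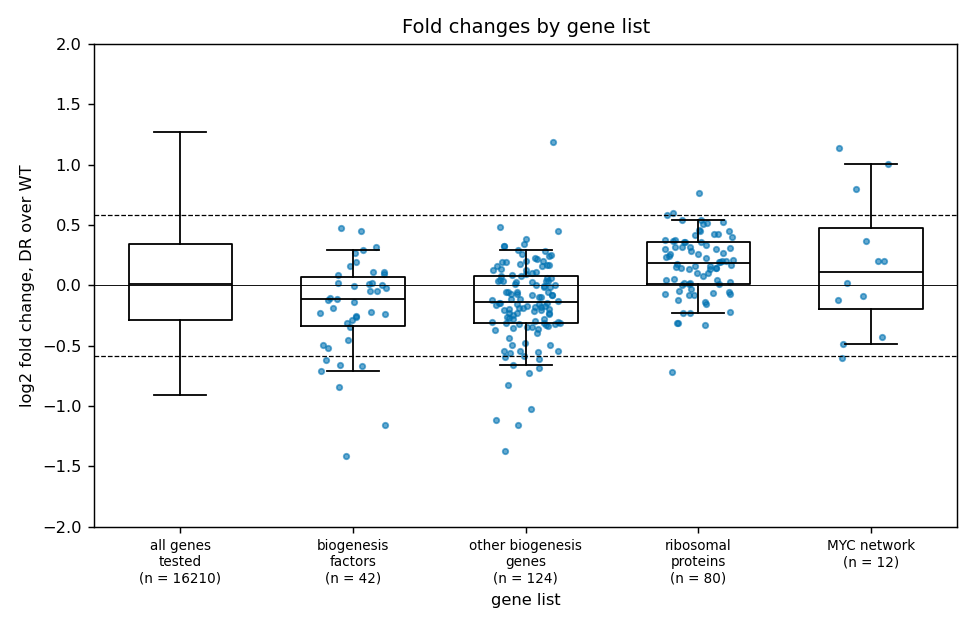
Log2 fold changes (y axis, DR-labelled library over WT-labelled library) by gene list (x axis); boxes give the quartiles and the median, whiskers the 5th and 95th percentiles, points single genes, and dashed lines 1.5-fold. The medians are 0.01 for all genes tested, -0.12 for the 42 factors and -0.14 for the 124 genes listed for other roles in biogenesis. They are 0.19 for 80 ribosomal proteins and 0.11 for 12 genes of the MYC network.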

How the data were processed

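RNA from 1 DR-labelled library and 1 WT-labelled library was sequenced in bulk. The authors deposited 1 table of unscaled estimated counts by gene, with gene lengths and annotation. The submitters' processing notes name Bowtie 0.12.2 and hg19. The counting tool and annotation are not given in the sources used here. The authors' own columns of log2 ratio, p-value and q-value were not used. Columns were matched to samples by description. Of 18267 genes with counts, 9108 have fractional counts, as do 19 of the 42 factors.

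Estimated counts were rounded and scaled by edgeR 4.0.16 TMM factors (1.01 and 0.986) in R 4.3.3. A filter of 10 reads, summed over the libraries, removed 2057 genes, and a pseudocount of 0.5 CPM was added. No p-value is given, because the quasi-likelihood test of edgeR needs replicates and there were none. Intervals (95%, Clopper-Pearson) were taken on the fraction of a gene's reads that came from the DR-labelled library (SciPy 1.17.1, Python 3.11.15). Intervals between genes add the counting variances of the 4 values. Clopper-Pearson intervals (95%) were also taken on the share of a library's reads held by the factors. All these intervals, and the floor of 3 reads, cover counting error only, since the reads carry no molecular identifiers here. The calculation was tested on simulated counts that carry counting error only, with the interval taken there without the pseudocount of 0.5 CPM. That test cannot show the spread between libraries.

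Members and lists were chosen by role with earlier results of these data known. All members are named, with full values for those 1.5-fold apart and for the extremes by group and level. Of the other biogenesis genes NAT10, those 2-fold apart and the extremes of each list are named, and of the MYC network MYC. RPL8, RPS14, RPS27 and members with shared stretches were named after their values were seen, and MPP6 is named for its Gene ID. Shared 50-base stretches were counted for the 42 members and for PWP2, DDX24, BRIX1, DDX55, EXOSC8 and NAT10. The longest coding transcript of each was compared, on either strand, with all transcripts of other genes in GENCODE 29. The annotation behind the deposited counts is not known and may lack some of these other genes. A shared stretch thus marks a possible ambiguity of the reads and not a measured one. Listed symbols were matched by NCBI Gene ID where older (6 genes). Alternatives were DESeq2 1.42.0 size factors, library totals, other filters, pseudocounts and folds, and subsets of members.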

Additional observations from a re-analysis of the deposited data

How the results depend on the processing

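No paired analysis was possible because each group is a single library, which also means that no replicate could be left out in turn. With DESeq2 size factors, no filter, a filter of 50 reads, or pseudocounts of 0.1 and 5 CPM, 7 of the 7 lower genes stayed 1.5-fold lower, and 0 of the 42 were higher in every alternative. With library totals 6 stayed, and TSR1 was lost. POLR1A and WDR75 changed sign with library totals and PES1 with DESeq2 size factors, all within 0.05 of 0. With library totals the medians were -0.20 for the particle genes and -0.008 for the multifunctional proteins, a shift made by the scaling itself. At 2-fold 2 genes were lower. Without genes with fractional counts, which leaves 23 members, 4 were lower, and the medians were -0.22 for all, -0.38 for polymerase I and 0.36 for the large subunit. Without NPM1, RRN3, UTP14A and BOP1 the multifunctional median was -0.27. Without members sharing over 10% of their stretches, an alternative chosen after seeing the data, 30 remained and 4 were lower, with medians of -0.05 for all, -0.01 for polymerase I, -0.026 for the small subunit, 0.16 for the large subunit and -0.27 for the multifunctional proteins. These subsets hold fewer genes. Depth did not limit the members, but the absence of replicates did.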

Other observations

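The RNA exosome, which trims the 3′ ends of rRNA precursors, and the genes that assemble snoRNA particles were also measured. Of 13 genes listed for the exosome 2 were at least 1.5-fold lower in the DR-labelled library and 0 higher. Of all genes tested 11.3% were lower and 15.0% higher by as much. The median log2 fold change of the list was -0.21. The list includes MPP6 (-0.25), by its Gene ID a membrane scaffold gene and not the exosome cofactor of that name. EXOSC8, a subunit of the exosome ring, had 1118 reads (20.08 CPM) in the DR-labelled library and 1579 reads (45.38 CPM) in the WT-labelled library. Its log2 fold change was -1.16 (95% read-counting interval -1.27 to -1.05), and it shares 3.57% of its 50-base stretches with other annotated genes. The catalytic subunit DIS3, named after its values were seen, had 54.73 and 88.35 CPM (-0.69), and EXOSC4, the highest of the list, lay at 0.32. Of the 9 other snoRNP genes 1 was lower and 0 higher, again beside 11.3% and 15.0%, from RUVBL2 (96.16 and 144.6 CPM; -0.59), a helicase of the assembly machinery, to the core protein SNU13 (0.16), and their median was -0.20. No explanation was tested for these values, which come from 1 library per condition.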
